A study of Mus musculus with 14 samples.

Results

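Tissue kallikrein genes were followed in the colon of adrenalectomized (ADX) mice with and without the glucocorticoid receptor (GR) in the intestinal epithelium. The members were 10 mouse genes chosen by name: Klk1, Klk1b1, Klk1b3, Klk1b4, Klk1b5, Klk1b11, Klk1b22, Klk1b24, Klk1b26, and Klk1b27. Of these, 8 had a probe on the array through the RefSeq accession of the design, Klk1b3 had 2 probes, and Klk1b5 and Klk1b22 had none, so that the family held 8 of the 19096 genes named on the array and 9 of its 41174 mouse probes. The family was proposed with the values of the dexamethasone-treated Flox arrays in view, and the comparisons that contain those arrays are therefore given as a description, without a p value for any member.

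The 14 arrays held total colon RNA from male C57BL/6 mice on chow, 1 array per mouse. Flox mice carry GR fl/fl alleles, and GR iKO mice carry the same alleles with Villin-cre, a transgene that is active in the intestinal epithelium, so that other cells of the GR iKO colon keep the receptor. All mice were ADX for 2 weeks, a step that removes the adrenal source of endogenous glucocorticoids, and the colon was taken 6 hours after an injection. Flox mice received PBS (4 arrays) or 1 mg/kg of the synthetic glucocorticoid dexamethasone (DEX, 3 arrays), and GR iKO mice received PBS (3 arrays) or the same dose of DEX (4 arrays). The labels put the age at ADX at 6 to 8 weeks and the age of the mice at 8 to 10 weeks, and the methods of the study give an older age. The labels describe a DEX injection for every sample, so groups were taken from the sample titles, and each array is named here by its group and title number.

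The deposited column names carry the same number for all arrays of a group, a different one for each group, followed by the title number. Read as a slide number, it puts each group on a slide of its own. In no comparison below can such a slide difference be told apart from the group. Values are log2 signals of the table that the authors deposited. A probe is called well above background where the scanner software marked it so, which held for 28284 to 30504 probes per array. Nr3c1, the gene of GR, had 4 probes, of which 3 were called lower in the GR iKO colon under DEX, with log2 differences of −1.17 to −1.37, and 1 under PBS. Whether these probes lie in the deleted stretch is not given in the sources used here. The 9 colon epithelium markers (such as Car1, Aqp8, and Cdh17) were well above background on every array, with a mean log2 signal of 15.11 to 15.42. On 6 of the 14 arrays the pancreatic enzyme genes Cpa1, Cpb1, and Prss2 stood far above the rest, and their values are set beside the kallikreins wherever they move together.

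Tissue kallikreins are secreted serine proteases encoded by a cluster of closely related genes on mouse chromosome 7. Klk1, the tissue kallikrein proper, releases kinins from kininogens, and the kinins act on the receptors Bdkrb1 and Bdkrb2. The Klk1b genes arose by duplication in rodents and are best known from the submandibular gland, where several of their products process or bind growth factors: Klk1b22 and Klk1b26 encode proteins that bind epidermal growth factor.

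Upstream sequence is shown for the 4 members whose signal varied most between arrays and for Klk1, whose signal varied little, so that near copies of the cluster can be set beside a steady gene of it. In the reference order along the chromosome, the members run Klk1b1, Klk1b11, Klk1b26, Klk1b27, Klk1b22, Klk1b24, Klk1b3, Klk1b4, Klk1b5, and Klk1. The 250 bases before each annotated start are given 5′ to 3′ from RefSeq on assembly GRCm38.p6, with TTTAAA, a variant of the TATA box, and AGAACA, the half-site of the glucocorticoid response element, in capitals.
Klk1b27 (chr7:44052040-44052289, + strand): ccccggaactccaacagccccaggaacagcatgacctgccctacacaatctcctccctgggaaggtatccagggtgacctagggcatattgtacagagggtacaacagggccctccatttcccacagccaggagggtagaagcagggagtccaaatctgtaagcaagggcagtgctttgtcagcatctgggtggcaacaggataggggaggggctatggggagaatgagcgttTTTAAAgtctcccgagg
Klk1b26 (chr7:44012428-44012677, + strand): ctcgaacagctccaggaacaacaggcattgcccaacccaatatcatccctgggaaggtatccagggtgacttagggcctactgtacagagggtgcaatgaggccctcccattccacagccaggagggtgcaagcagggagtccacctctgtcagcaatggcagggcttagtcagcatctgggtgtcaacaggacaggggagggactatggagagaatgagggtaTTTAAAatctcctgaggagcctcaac
Klk1b24 (chr7:44187986-44188235, + strand): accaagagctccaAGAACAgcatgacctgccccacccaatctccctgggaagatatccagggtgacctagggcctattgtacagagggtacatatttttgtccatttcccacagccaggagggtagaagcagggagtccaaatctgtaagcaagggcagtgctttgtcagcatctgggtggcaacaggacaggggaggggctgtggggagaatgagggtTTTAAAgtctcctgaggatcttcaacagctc
Klk1b11 (chr7:43995627-43995876, + strand): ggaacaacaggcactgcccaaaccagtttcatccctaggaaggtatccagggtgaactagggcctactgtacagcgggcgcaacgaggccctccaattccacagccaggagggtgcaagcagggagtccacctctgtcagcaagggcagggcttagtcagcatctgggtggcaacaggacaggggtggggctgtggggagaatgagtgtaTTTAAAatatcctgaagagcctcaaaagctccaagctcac
Klk1 (chr7:44225110-44225359, + strand): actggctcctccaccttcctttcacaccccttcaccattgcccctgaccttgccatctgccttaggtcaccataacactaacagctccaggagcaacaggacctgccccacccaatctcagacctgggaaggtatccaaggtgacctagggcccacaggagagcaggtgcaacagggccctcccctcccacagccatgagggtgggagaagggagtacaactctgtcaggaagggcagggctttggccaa

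In the windows of 250 bases before to 50 bases after the start, TTTAAA on the gene strand was found in 9 of 10 members and in 13.2% of all 32851 windows of the RefSeq table. It began between 48 and 13 bases before the annotated start, and the member without it in this window was Klk1. The Klk1 window ends in bases that stand just before TTTAAA in Klk1b4, and sequence beyond the window was not searched. TTTAAA was searched for after the windows had been read. TATAAA on the gene strand was in 0 of 10 members and 8.32% of all windows. AGAACA, searched on both strands, was in 2 of 10 members, Klk1b24 and Klk1b3, and in 19.0% of all windows, so that the family's share was close to that of windows in general. The full palindrome, AGAACA and TGTTCT spaced by 3 bases, contains that half-site and was in 0 of 10 members and 0.00913% of windows. After global alignment, the 45 pairs of member windows were 56.3% to 90.7% identical, with a median of 79.3%. Identity is the share of matching bases in the full 300-base window. Windows whose annotated starts lie at different places in the copies therefore score lower. Klk1b11, Klk1b24, Klk1b26, and Klk1b27 were 77.3% to 87.3% identical to each other. They were 57.0% to 85.7% identical to Klk1, Klk1b3, and Klk1b4. Members and the pancreatic genes Cpa1, Cpb1, and Prss2 were 34.0% to 53.7% identical. These windows lie mostly upstream of the transcripts, and transcript and probe sequences were not compared. Transcripts of closely related genes can bind to each other's probes, so the assignment of signal to a single Klk1b gene is uncertain throughout.

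The 9 probes fell into 3 sets by how they behaved over the arrays. Klk1, both Klk1b3 probes, and Klk1b4 were well above background on all 14 arrays and varied little. Klk1b11, Klk1b24, Klk1b26, and Klk1b27 spanned 4.52 to 7.29 log2 units, and their highest values were on the same 2 DEX-treated Flox arrays. Klk1b1 was not well above background on any array.

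Klk1b27, whose range was the widest among the members measured on several arrays, had log2 signals of 7.83, 8.83, and 3.60 on the Flox DEX arrays 1, 2, and 4. It had 2.94, 1.54, 3.42, and 2.04 on the 4 Flox PBS arrays, none of them well above background. In GR iKO mice it had 1.59, 1.62, and 3.17 on the PBS arrays 2, 3, and 4 and 2.52, 4.20, 2.89, and 5.33 on the 4 DEX arrays. All 3 Flox DEX arrays were above all 4 Flox PBS arrays, but array 4 only by a small margin, and of the GR iKO arrays only DEX 2 and DEX 4 were well above background. The fitted change with DEX in Flox mice was 4.26 on the log2 scale (SE 1.11). As a bound on the group means, Klk1b27 was at least 9.39-fold higher in the Flox DEX group. Here the dim group is set at the lowest signal that counts as well above background on each array. That signal was 3.35 to 3.90 on the Flox PBS arrays. Flox DEX array 4, at 3.60, lay inside that range, so the bound rests on arrays 1 and 2. In a bulk sample, more cells that make a transcript and more transcript per cell cannot be told apart.

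Klk1b24 was well above background on all 14 arrays. Its log2 signals were 9.49, 10.19, and 7.58 on the Flox DEX arrays 1, 2, and 4, against 6.88, 6.55, 7.05, and 6.59 on the Flox PBS arrays. The GR iKO arrays had 7.18, 6.87, and 7.11 with PBS and 5.68, 7.16, 7.05, and 7.16 with DEX. The 3 Flox DEX arrays were thus the 3 highest of all 14, and array 1 of GR iKO DEX was the lowest of all. The fitted change with DEX in Flox mice was 2.32 (SE 0.53).

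Klk1b11 had 9.71, 9.91, and 4.48 on the Flox DEX arrays 1, 2, and 4 and 4.14, 4.93, 4.72, and 4.18 on the Flox PBS arrays. Flox DEX array 4 lay inside the range of the PBS arrays, so the groups overlapped. In GR iKO mice Klk1b11 had 5.23, 4.48, and 3.86 with PBS and 3.95, 6.13, 4.88, and 6.20 with DEX. DEX arrays 2 and 4 were again the higher pair. Klk1b26, which encodes an epidermal growth factor-binding protein, was well above background only on the Flox DEX arrays 1 and 2, at 6.97 and 7.13, and had 2.59 on array 4. On the Flox PBS arrays Klk1b26 had 2.52, 1.58, 3.06, and 2.30, and on the 7 GR iKO arrays its values ran from 1.61 to 3.66. The fitted changes with DEX in Flox mice were 3.54 (SE 1.10) for Klk1b11 and 3.20 (SE 0.91) for Klk1b26. For Klk1b26 the group means were at least 4.15-fold apart, a bound that rests on Flox DEX arrays 1 and 2.

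**Figure D1:**
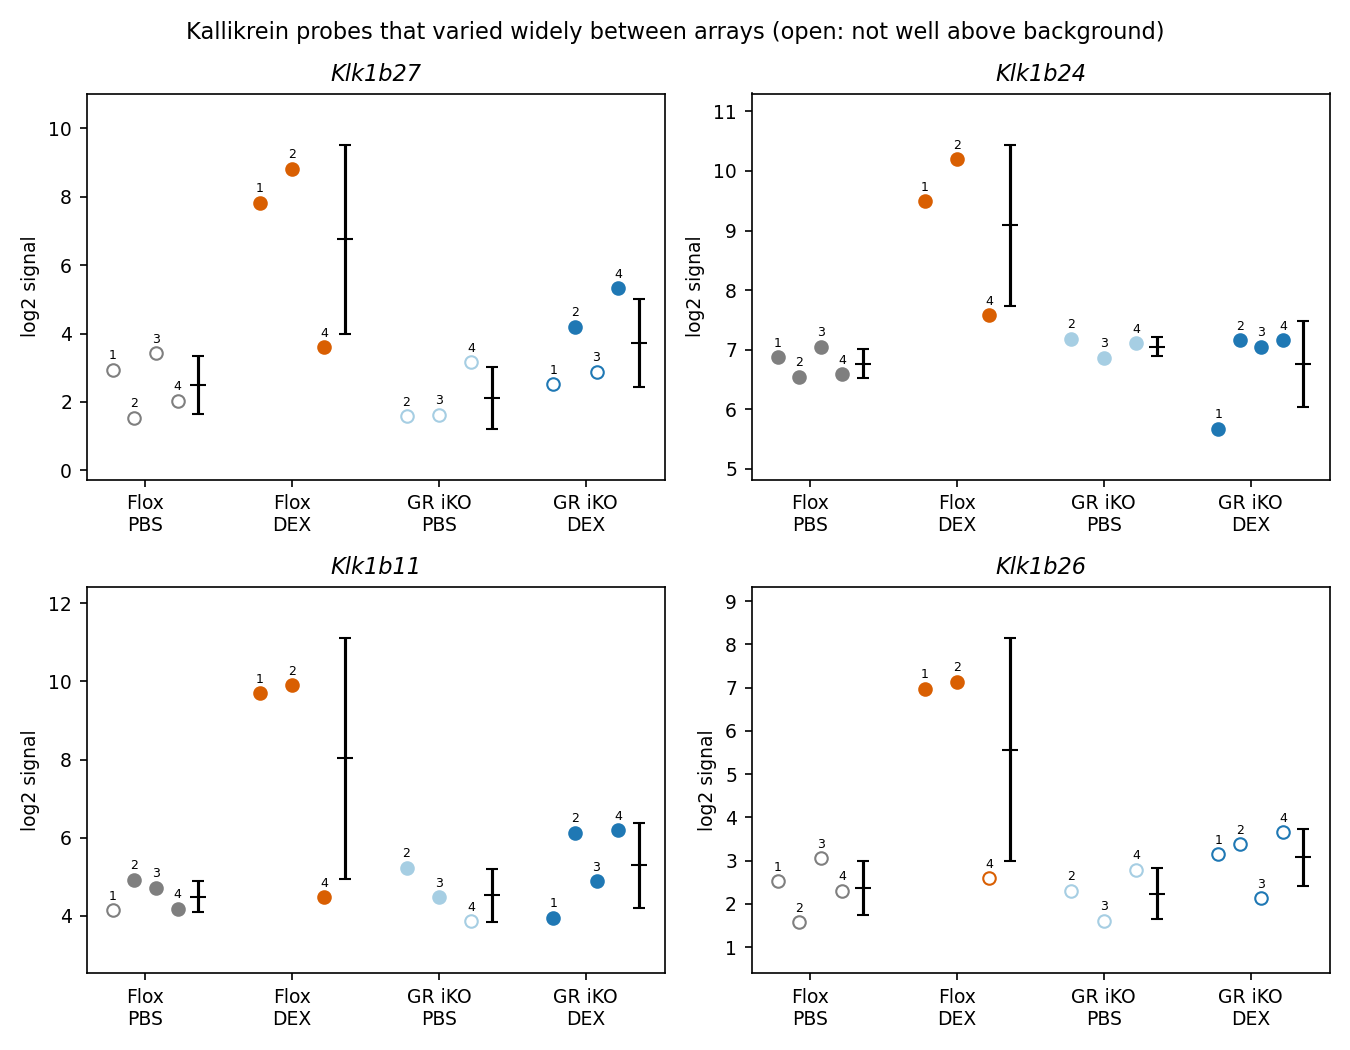
Log2 signal of the Klk1b27, Klk1b24, Klk1b11, and Klk1b26 probes (y axis) on each of the 14 arrays in 4 groups (x axis), with title numbers above the points, filled points well above background, and bars for mean and SD (n = 4, 3, 3, and 4 arrays). Flox DEX arrays 1 and 2 are the highest in each panel (Klk1b27 at 7.83 and 8.83), and Flox DEX array 4 lies near the PBS arrays.

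The pancreatic genes were high on the same pair of Flox arrays. Cpa1 (carboxypeptidase A1) had 17.45, 17.38, and 4.55 on the Flox DEX arrays 1, 2, and 4 and 3.92, 16.43, 9.16, and 3.26 on the Flox PBS arrays. In GR iKO mice Cpa1 had 3.64, 2.21, and 3.20 with PBS and 4.64, 14.72, 3.90, and 13.44 with DEX. Cpb1 (carboxypeptidase B1) and Prss2 (trypsinogen) were high on the same 6 arrays, with Cpb1 at 17.35, 17.56, 16.17, 9.15, 14.86, and 13.72 and Prss2 at 16.55, 16.64, 14.06, 7.21, 12.86, and 12.08 on Flox DEX 1, Flox DEX 2, Flox PBS 2, Flox PBS 3, GR iKO DEX 2, and GR iKO DEX 4. Of the whole list of 14 exocrine pancreas genes, 10 to 14 were well above background on each array. Its mean log2 signal ran from 6.93 to 15.01 over the Flox PBS arrays and from 7.58 to 16.85 over the Flox DEX arrays. In GR iKO mice it ran from 6.75 to 7.21 with PBS and from 7.48 to 13.58 with DEX. Cela1, Clps, and Sycn had group means of 11.91 to 17.19 in all groups, so they hold up the list mean where Cpa1 is low. Of the 6 salivary gland markers on the array, Smr3a, Prol1, and Dcpp1 were well above background on none of the 14 arrays, whereas Bhlha15 and Amy1 were on all 14 and Pip on 10. The 2 Amy1 probes (salivary amylase, a near copy of the pancreatic amylases) were high on the arrays with high pancreatic signal, up to 17.86 on Flox DEX 2. The mean of the 6 genes ran from 4.42 to 6.77 over the Flox PBS arrays, from 4.59 to 6.62 over the Flox DEX arrays, from 4.35 to 4.53 over the GR iKO PBS arrays, and from 4.47 to 6.19 over the GR iKO DEX arrays. For 2 other marker lists the Flox groups did not overlap. The mean of 8 small intestine markers was 6.64 to 7.38 on the Flox PBS arrays and 7.87 to 8.53 on the Flox DEX arrays. Of their 12 probes, 3 were called higher and 1 lower, against 1.53% of all probes in either direction. The group means rose most for Slc10a2 (5.67 to 11.39 at probe A_51_P243755) and Lct (4.49 to 8.26). Alpi, Fabp2, and Apoa4 rose by less, Sis and Rbp2 were slightly lower, and Fabp6 fell from 4.57 to 3.47. The mean of 6 smooth muscle markers was 14.64 to 15.05 with PBS and 15.25 to 15.86 with DEX, and 0 of their 10 probes were called. The part of these tissues in the kallikrein signal was not tested.

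Set against Cpa1, Cpb1, and Prss2 array by array, the 4 variable kallikreins matched on some arrays and not on others. On Flox DEX 1 and 2 the mean log2 signal of the 3 pancreatic genes was 17.12 and 17.20, and all 4 kallikreins were at their highest. On Flox PBS 2 that mean was 15.55, and Klk1b27 and Klk1b26, at 1.54 and 1.58, were not well above background there. Klk1b24 had 6.55 on that array, the lowest of the Flox arrays, and Klk1b11 had 4.93, the highest of the Flox PBS arrays. On GR iKO DEX 2 and 4 the mean was 14.15 and 13.08, and Klk1b27 (4.20 and 5.33) and Klk1b11 (6.13 and 6.20) were above GR iKO DEX 1 and 3, whereas Klk1b24 had 7.16 on both, close to 7.05 on array 3. On Flox DEX 4 the mean was 5.47, and Klk1b27 (3.60) and Klk1b24 (7.58) were still above every Flox PBS array, while Klk1b11 (4.48) and Klk1b26 (2.59) were not. The part of pancreatic RNA in the kallikrein signal was not tested.

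**Figure D2:**
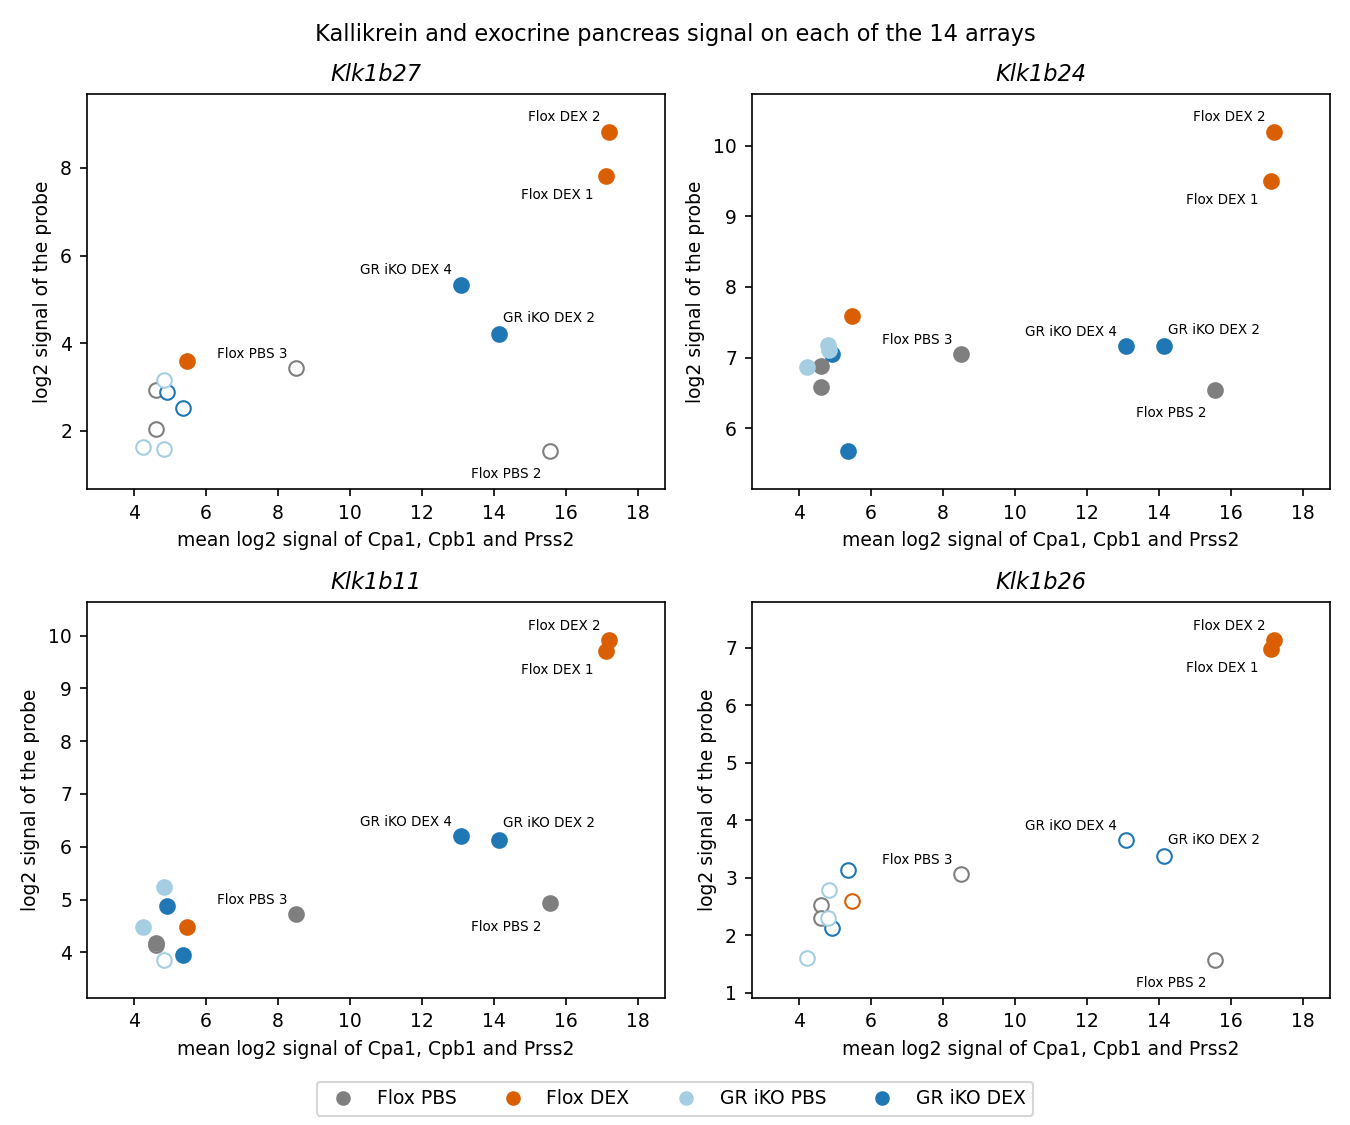
Log2 signal of the Klk1b27, Klk1b24, Klk1b11, and Klk1b26 probes (y axis) against the mean log2 signal of Cpa1, Cpb1, and Prss2 (x axis) on each of the 14 arrays, with filled points well above background and names on arrays whose x value is above 8. Flox DEX 1 and 2 are at the upper right (17.12 and 17.20 on the x axis), and Flox PBS 2, at 15.55, is not well above background for Klk1b27 and Klk1b26.

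Flox PBS 3 had a lower pancreatic mean, 8.50. Leaving out all arrays with a mean above 8 left 2 Flox PBS, 1 Flox DEX, 3 GR iKO PBS, and 2 GR iKO DEX arrays. The change with DEX in Flox mice was then 1.11 for Klk1b27, 0.85 for Klk1b24, 0.32 for Klk1b11, and 0.18 for Klk1b26, each resting on Flox DEX array 4 alone and on a spread borrowed from the other groups. With the pancreatic mean as a covariate over all 14 arrays, the changes were 3.31, 1.86, 2.29, and 2.45 in the same order.

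Klk1 had log2 signals of 16.00, 15.63, 16.02, and 15.85 on the Flox PBS arrays and 15.87, 16.09, and 16.03 on the Flox DEX arrays. It had 16.15, 15.74, and 15.91 on the GR iKO PBS arrays and 15.90, 15.68, 15.72, and 15.81 on the GR iKO DEX arrays. All groups overlapped, and the whole range over 14 arrays was 0.51 log2 units. Flox PBS 2 and GR iKO DEX 2, both with high pancreatic signal, had the 2 lowest Klk1 values, and Flox DEX 2, with the highest pancreatic signal, had the second highest. Klk1b4 ran from 14.45 to 15.02, and the Klk1b3 probes A_51_P389929 and A_51_P413147 ran from 12.65 to 13.39 and from 15.62 to 16.13. These 4 probes went up and down together between arrays of the same group: Pearson's r of their deviations from group means was 0.73 to 0.94 over 14 arrays for the 6 pairs. Among themselves, Klk1b11, Klk1b24, Klk1b26, and Klk1b27 had r of 0.78 to 0.92. These values lean on the Flox DEX arrays, where each of these genes spread most. For Klk1b11 the SD was 3.08 there and 0.39 to 1.08 in the other groups. On Flox PBS 2, Klk1b27 was the lowest of its group and Klk1b11 the highest. The reverse held on GR iKO PBS 4. Both were higher on GR iKO DEX 2 and 4 than on GR iKO DEX 1 and 3. These correlations are descriptions, and the probes share arrays and may share transcripts. Klk1b1 ran from 1.47 to 3.68 and was well above background on no array, so no fold is given for it.

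**Figure D3:**
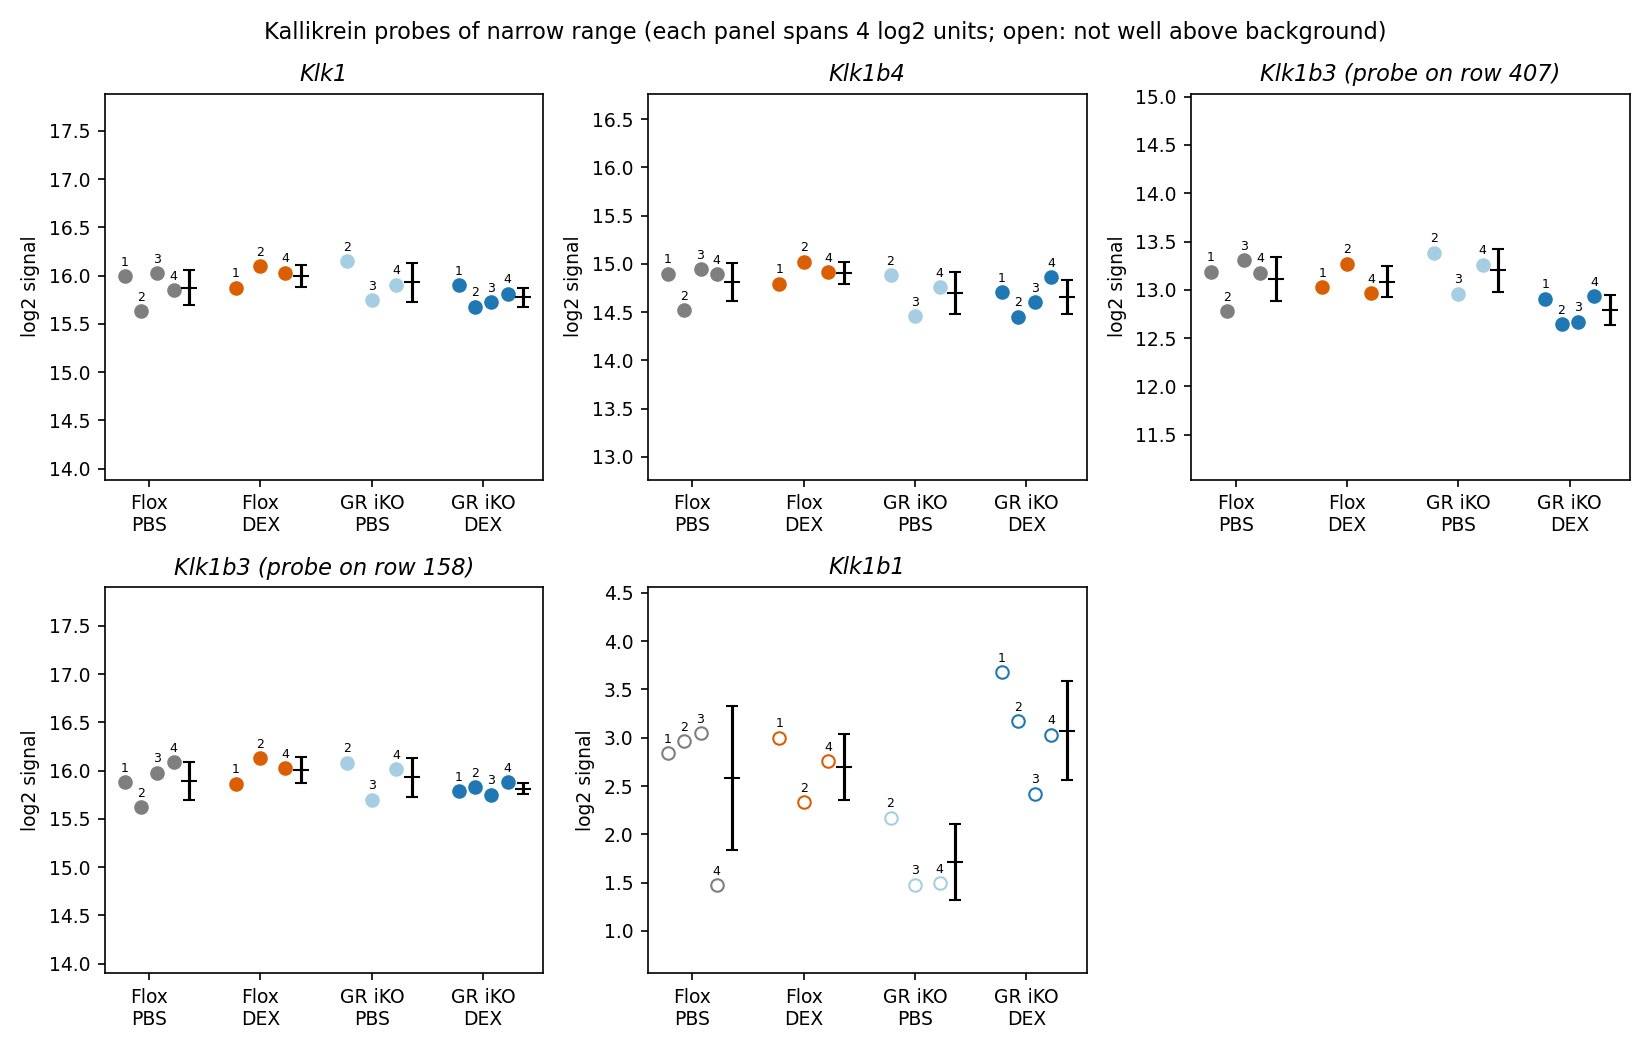
Log2 signal of the Klk1, Klk1b4, Klk1b3 (2 probes, named by array row), and Klk1b1 probes (y axis, 4 log2 units in every panel) on the 14 arrays in 4 groups (x axis), with open points not well above background and bars for mean and SD. Klk1 stays between 15.63 and 16.15 in all groups, and Klk1b1 is not well above background on any array.

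The response to DEX in GR iKO mice asks what the steroid does when epithelial GR is absent, and it compares no Flox DEX array. The residual spread behind each SE and p value is pooled over all 4 groups, however, and so includes the Flox DEX arrays. In limma, 1 of 9 member probes was called (adjusted p under 0.05 and at least 2-fold), against 4.26% of all probes. That probe was Klk1b1 (adjusted p = 0.0451), which was well above background on no array of either group, and the call was lost when any one of 10 arrays was left out, each Flox DEX array among them. The 4 variable members were not called. The fitted difference was 0.76 for Klk1b11 (SE 1.10, adjusted p = 0.686) and −0.29 for Klk1b24 (SE 0.53, adjusted p = 0.754). No fold is given for Klk1b27 (adjusted p = 0.364), which was well above background on no PBS array, or for Klk1b26 (adjusted p = 0.579), which was so on no array of either group. The SD of Klk1b11 was 0.69 and 1.08 in the groups compared and 3.08 in the Flox DEX group. With the 2 groups fitted alone in limma, the adjusted p was 0.257 for Klk1b27, 0.493 for Klk1b11, 0.285 for Klk1b26, and 0.662 for Klk1b24. The difference was −0.15 for Klk1 (adjusted p = 0.416) and −0.04 for Klk1b4 (adjusted p = 0.872). The Klk1b3 probe A_51_P389929 had 13.39, 12.96, and 13.26 with PBS and 12.91, 12.65, 12.67, and 12.93 with DEX, so that the groups did not overlap, but its difference of −0.41 (SE 0.15) missed the threshold (adjusted p = 0.0875), and that of the other Klk1b3 probe was −0.12 (adjusted p = 0.549). Non-overlap was found for 1 member probe upward, Klk1b1, and 1 downward, Klk1b3, against 13.4% and 15% of all probes. The median change of the 9 probes was −0.04, against −0.02 over all probes.

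GR iKO and Flox mice given PBS were compared to ask whether epithelial GR matters without DEX. None of the 9 member probes was called, against 0.138% of all probes, and no member's groups were apart, against 4.55% of all probes upward and 3.66% downward. The 4 steady probes differed by −0.12 to 0.09 (adjusted p at least 0.906). Klk1b24 differed by 0.29 (SE 0.53, adjusted p = 0.957). Its SD was 0.24 and 0.17 in the Flox and GR iKO PBS groups and 1.35 in the Flox DEX group, which enters the pooled spread. That p is therefore no measure of how alike the PBS groups were. Klk1b27 (adjusted p = 0.985) was well above background on no array of either group. The median difference was 0.03, against 0.01 over all probes. At an unadjusted p under 0.05, limma gave 1 of 9 probes, Klk1b1, which was not well above background. Its p ranked 3336 among all 41174 probes, so many probes outside the family passed as well.

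The remaining comparisons contain the Flox DEX arrays and are descriptions. For DEX in Flox mice, 1 of 9 member probes, Klk1b24, met the same call rule, which 1.53% of all probes met in either direction and 0.622% upward. The arrays were apart for 2 members upward, Klk1b24 and Klk1b27, and for 0 downward, against 10.2% and 10.5% of all probes. For GR iKO against Flox mice under DEX, 0 of 9 met the rule (0.192% of all probes), with fitted differences of −3.02 (SE 1.11) for Klk1b27, −2.74 (SE 1.10) for Klk1b11, −2.49 (SE 0.91) for Klk1b26, −2.33 (SE 0.53) for Klk1b24, and −0.22 (SE 0.12) for Klk1. As a bound on the group means, Klk1b26 was at least 3.78-fold lower in GR iKO mice. That bound rests on Flox DEX arrays 1 and 2, as array 4, at 2.59, lay inside the GR iKO DEX range of 2.13 to 3.66. With all arrays of high pancreatic signal left out, which leaves Flox DEX array 4 alone on one side, these differences were −0.90 for Klk1b27, −0.06 for Klk1b11, 0.05 for Klk1b26, and −1.22 for Klk1b24. Here 0 members were apart upward and 2 downward, Klk1b24 and the Klk1b3 probe A_51_P389929, against 8.34% and 7.61% of all probes. The differences between the DEX responses of the genotypes were −2.65 (SE 1.57) for Klk1b27 and −2.78 (SE 1.55) for Klk1b11. They were −2.36 (SE 1.29) for Klk1b26 and −2.62 (SE 0.75) for Klk1b24, and 0 of 9 met the rule (0.136% of all probes). Under the other processing settings their highest values were −0.53, −0.43, 0.23, and −1.54 in that order. The differences of Klk1b27 and Klk1b26 rest on PBS groups in which no array was well above background. These comparisons share the Flox DEX arrays. The changes with DEX in Flox mice moved with each Flox DEX array left out. For Klk1b27 they were 3.73 without array 1, 3.23 without array 2, and 5.84 without array 4. In the same order they were 2.12, 1.77, and 3.08 for Klk1b24, 2.70, 2.60, and 5.32 for Klk1b11, and 2.49, 2.41, and 4.68 for Klk1b26.

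**Figure D4:**
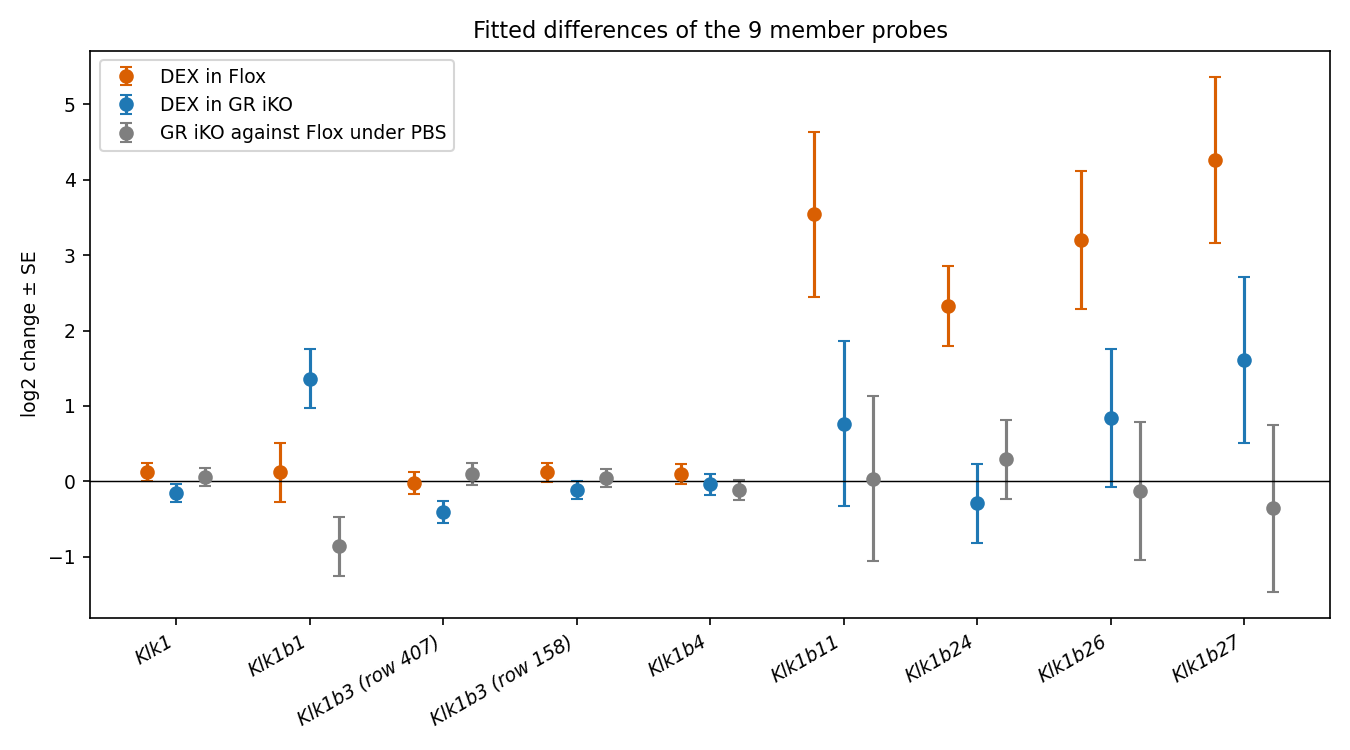
Fitted log2 change with its SE (y axis) for the 9 member probes (x axis) with DEX in Flox mice, with DEX in GR iKO mice, and in GR iKO against Flox mice under PBS, from 14 arrays in 4 groups. Klk1b27, Klk1b11, Klk1b26, and Klk1b24 have the largest values in Flox mice (4.26, 3.54, 3.20, and 2.32), and the Klk1, Klk1b3, and Klk1b4 values lie between −0.41 and 0.12.

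Other genes of the cluster and of the kinin pathway came from fixed lists. Of 4 further Klk1b genes, Klk1b9, which encodes an epidermal growth factor-binding protein, was called higher in GR iKO mice given DEX (1.24, SE 0.36, adjusted p = 0.0457), a call lost in 11 of 14 fits with an array left out and under 6 of 12 other settings, and Klk1b8, Klk1b16, and Klk1b21 were called in no comparison. Of 13 probes of the kallikrein-related peptidases, 2 were called higher in the same comparison, where 2.68% of all probes were called higher. Klk9 had 4.30, 5.88, and 4.40 with PBS and 7.47, 7.33, 7.20, and 7.31 with DEX in GR iKO mice (2.47, SE 0.53, adjusted p = 0.0144). Klk7, which cleaves proteins of the skin surface, was called at its probe A_52_P418429 (1.38, SE 0.36, adjusted p = 0.03) and at neither of its other 2 probes, of which A_52_P538490 differed in the opposite direction (−1.75, adjusted p = 0.0671). The called probes of Klk9, Klk7, Klk1b9, and Klk1b1 all lay on array rows 355 to 532, which held 942 of the 1103 probes called higher in that comparison. The part of array position in these calls was not tested, and after normalization within 3 blocks of rows, Klk9 stayed called and Klk7, Klk1b9, and Klk1b1 did not.

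Klk12, of the same list, followed part of the variable members' pattern: it had 6.63 and 6.76 on the Flox DEX arrays 1 and 2 and 1.43 on array 4. It was also well above background on GR iKO DEX 4, at 6.21, and on GR iKO PBS 2, at 5.17, an array without high pancreatic signal, and it was chosen for mention after its values were seen. In the kinin system, 0 of 12 probes were called in any comparison. The kininogen genes Kng1 and Kng2, which encode the substrates of Klk1, were well above background on none of the 14 arrays. The kinin receptor genes were measured on all 14 arrays, with group means of 7.99 to 8.67 for Bdkrb1 and 4.67 to 5.60 for Bdkrb2. Egf, which encodes epidermal growth factor, had group means of 7.90 to 8.53 and was not called. Of 3 probes of protease inhibitors, Spink5 met the rule for lower signal with DEX in Flox mice but was well above background on no array. Spink5 encodes an inhibitor of kallikrein-related peptidases.

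The genes most like Klk1b27 over the 14 arrays, out of 16094 genes well above background on at least 4 arrays, were Slc7a8 (an amino acid transporter, r = 0.92), Lifr (the leukemia inhibitory factor receptor, r = 0.90), Vmn1r79, Olfr1036, Mesp1, Map3k6, Gtpbp1, Ttll4, Ncdn, and Rbm15 (r = 0.86). Slc7a8 had 10.47 and 10.36 on the Flox DEX arrays 1 and 2, 8.77 on array 4, and 8.31 to 9.09 on the other arrays. Lifr had 7.74 and 7.94 on Flox DEX 1 and 2 and 6.75 on array 4, and its next highest value was 7.28 on GR iKO PBS 4. Without the 2 arrays whose Klk1b27 value was farthest from the median, r fell to between 0.21 and 0.77 for these 10 genes, and those 2 arrays were Flox DEX 1 and 2. The 14 exocrine pancreas genes ranked lower, from rank 41 for Ctrl (r = 0.79) to rank 2722 for Sycn (r = 0.36). Prss2 had r = 0.75 at rank 82, Cpb1 0.71 at rank 164, and Cpa1 0.70 at rank 189. Without the same 2 arrays, r fell to 0.22 for Ctrl, 0.39 for Prss2, 0.35 for Cpb1, and 0.40 for Cpa1. Over the whole list it was then −0.20 (Cela1) to 0.41 (Amy2a5).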

How the data were processed

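Colon RNA of 14 mice was hybridized to 1-color Agilent 4x44 mouse arrays. The authors deposited a scanner file per array, with spot intensity as Feature Extraction wrote it, and a log2 table of the same arrays. The submitters' processing notes name Agilent Feature Extraction and Partek 6.6, and the normalization of the table is not given in the sources used here. Columns of the deposited log2 table matched their arrays (r at least 0.99942) and, once sorted, were equal within 0.0024, as quantile normalization between arrays leaves them. That step forces each array to the same distribution, so a shift common to most probes cannot be seen. The 75th percentile of the intensity was 567.8 to 774.0 over the arrays, and the number of arrays limits the precision. Of the 41174 probes, 28223 were named by RefSeq accession (assembly GRCm38.p6), and coordinates are given only for RefSeq windows of that assembly. A probe was counted well above background by the scanner's own mark.

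Members, lists, and tests were chosen with earlier results of these data known. The genes named are the members, Cpa1, Cpb1, and Prss2, Nr3c1, genes of the fixed lists that were called, and the 10 genes with the highest Pearson's r with Klk1b27. The kinin genes without a call, Egf, Klk12, and markers were named in addition, after their values were seen. The lists were further Klk1b genes, kallikrein-related peptidases, kinin system, growth factors (of which 1 gene is not reported here), protease inhibitors, and markers of exocrine pancreas, salivary gland, colon epithelium, small intestine, goblet cells, and smooth muscle. The 6 goblet cell markers had a mean log2 signal of 16.70 to 17.45 over all arrays.

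A linear model of the 4 groups was fitted to the log2 values of all 41174 probes in limma 3.58.1 (lmFit, eBayes; R 4.3.3), without covariates, and p values were adjusted after Benjamini-Hochberg over all probes. Calls needed an adjusted p under 0.05 and at least 2-fold. The script was tested on simulated data. Each mouse gave 1 array. The labels do not say whether samples with the same title number belong together. The same number ends the deposited column name, so a position on the slide and a pairing of mice cannot be told apart. In 18 pairs of arrays with the same number, deviations from group means correlated at −0.113 to 0.183 (median 0.0445), and 4 pairs were over 0.1. In 55 pairs with other numbers the range was −0.244 to 0.154 (median −0.011), and 4 pairs were over 0.1. Same-number pairs were thus slightly more alike. That does not settle whether the numbers pair the mice, and the main model left them out. Alternatives were scanner intensity scaled to the 75th percentile or the median, normexp correction (offset 50), quantile normalization within 3 blocks of array rows, a filter on dim probes, no fold minimum, only the 2 groups compared, the methods' t-test, the pancreatic mean as a covariate, a replicate block, and each array left out in turn. Leaving out arrays with high pancreatic signal was chosen after the data were seen. Promoter windows were aligned with Biopython 1.88. Protein identity was planned and not analysed here.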

Additional observations from a re-analysis of the deposited data

Results flagged for a closer look

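Among 40 groups of 4 arrays looked at, 5 held an array whose gap to the nearest other array was an unusually large part of the group's range. Chance gives about 2 for independent groups. These groups share arrays, and several probes vary together, so they are not independent. The groups of 3 arrays, Flox DEX among them, are outside this count. Klk1b4 had 14.52 on Flox PBS 2 against 14.89 to 14.94 on the other Flox PBS arrays (gap 0.886 of the range), and Flox PBS 2 is the array of that group with the highest pancreatic signal. Klk1b24 had 5.68 on GR iKO DEX 1 against 7.05 to 7.16 on the others (0.924). Klk1b1 had 1.47 on Flox PBS 4 against 2.84 to 3.05 (0.869), all not well above background. Klk1b9 had 3.12 on Flox PBS 4 against 4.48 to 4.75 (0.834). Spink5 had 2.36 on GR iKO DEX 3 against 1.65 to 1.70 (0.938), all not well above background.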

How the results depend on the processing

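For DEX in Flox mice, the count of called member probes (1) became 2 after 75th percentile scaling, with a filter on dim probes, and with the methods' t-test at an unadjusted p, and 0 with that test adjusted, the pancreatic covariate, only the 2 groups compared, or arrays of high pancreatic signal left out. Leaving out each array in turn gave 0 to 4, with 0 without Flox DEX 1, Flox DEX 2, any Flox PBS array, or GR iKO DEX 3, and 4 without Flox DEX 4. For DEX in GR iKO mice, the count (1, Klk1b1) became 0 with normexp correction, normalization within row blocks, the filter (which removes Klk1b1), the covariate, only the 2 groups compared, the methods' t-test adjusted, or the pancreatic arrays left out, and 0 to 1 with each array left out, with 1 only without Flox PBS 3, Flox PBS 4, GR iKO DEX 3, or GR iKO PBS 2. For GR iKO against Flox mice under DEX, the count (0) became 1 with normexp correction (Klk1b24) and with the methods' t-test at an unadjusted p, and 0 to 4 with each array left out. For the difference between responses it was 0 to 3 with each array left out. The 4 in the former and the 3 in the latter came without Flox DEX 4. Under PBS the count stayed 0 throughout. With the replicate block, on which the pairing check does not decide, the count was 0 for DEX in Flox and 0 for DEX in GR iKO mice. No member's called difference changed sign. That of Klk1b26 in GR iKO against Flox mice under DEX, not called, was 0.05 without the pancreatic arrays. Its difference between responses, also not called, reached 0.23 among the other settings. Over all probes, the count for DEX in Flox mice (631) was 222 with normexp correction, 386 with the block, 59 without the pancreatic arrays, 1389 and 31 with the methods' t-test before and after adjustment, and 236 to 809 with each array left out. For DEX in GR iKO mice it (1753) was 240 with normexp correction, 448 without the pancreatic arrays, and 666 with the methods' t-test adjusted. The counts of 57, 79, and 56 in the other comparisons ranged from 28 to 169, 24 to 180, and 25 to 153 with each array left out. Under PBS (57) the count was 1 without the pancreatic arrays, 5 with normexp correction, 15 with only the 2 groups compared, 24 with the block, 26 with the covariate, and 608 and 0 with the t-test before and after adjustment. Between genotypes under DEX (79) these settings gave 125, 33, 53, 26, 42, and 624 and 3, and no fold minimum gave 195. For the difference between responses (56) the count was 99 without the pancreatic arrays, 91 after 75th percentile scaling, 158 within row blocks, 24 with the block, and 35 with the covariate. Without a fold minimum the DEX counts were 1439 in Flox and 5011 in GR iKO mice. The cause of these shifts was not tested, and signal near background limits Klk1b26, Klk1b27, and Klk1b1.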
